A study of Mus musculus with 10 samples.

Results

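The genes described here are 31 markers of the enteric nervous system, 23 of neurons and 8 of glia, taken by name out of the 35275 mouse genes counted by RNA-sequencing in the proximal small intestine. They were chosen as known markers and not by their values in these libraries, although earlier results of these data were known when the list was drawn up. The neuron genes fall into 12 that most neurons express, 4 receptors or factors of the neuronal lineage, and 7 that make, store or mark transmitters. All 31 were present in the count tables, and 30 had enough reads for the test across genes. *Vsnl1*, a neuronal calcium sensor, fell below the filter on low counts and was compared on its own.

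Libraries came from 5 wild-type mice (WT) and 5 mice labelled KO, with 1 library per mouse and an age of 8 to 10 weeks. The study describes the KO mice as knockouts of the metal transporter Zip14 (*Slc39a14*). According to the methods of the study the RNA-sequencing used whole-body knockouts and wild-type controls of the same strain, bred from heterozygous parents, while the series title names a deletion in enterocytes and the labels give only KO. Which of the deletions was sequenced cannot be told apart from the labels, and no deletion confined to neurons or glia was part of the design. The RNA was total RNA of frozen intestinal segments, so that epithelium, muscle layers, nerves and vessels were measured together. The sex and the litter of each mouse were not stated per animal.

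The enteric nervous system lies in the wall of the gut, in a myenteric plexus between the muscle layers and a submucosal plexus beneath the mucosa. Its neurons and glia descend from neural crest cells that settle the gut through signals to the receptor Ret and its co-receptor Gfra1. Motor neurons that excite the muscle use acetylcholine and tachykinins, those that relax it use nitric oxide and vasoactive intestinal peptide, and glia surround the nerve cells in the ganglia and their fibres in muscle and mucosa. In RNA of whole tissue, fewer cells of a type and less RNA per cell cannot be told apart.

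Facts of the whole series bear on every value below. Totals were between 16729787 and 20819678 counts in WT and between 17118742 and 19414828 in KO libraries. *Slc39a14* had 260.4 ± 62.5 CPM (reads of a gene scaled to a common library size by TMM) in WT and 102.4 ± 32.9 in KO (SD, n = 5 each), which is -1.35 on the log2 scale (SE 0.22, adjusted p = 0.00184 by edgeR's quasi-likelihood test), with KO replicate 1 at 160 CPM and the other KO libraries between 78.5 and 93.8. All libraries are labelled proximal intestine, but 5 of 5 genes of the ileum were higher in KO (adjusted p under 0.05, as for every call here), led by *Fabp6*, the ileal bile acid binding protein, at 0.779 ± 0.607 CPM in WT and 5515 ± 2861 in KO. *Slc10a2*, the ileal bile acid carrier, went from 0.489 ± 0.237 to 169 ± 70.6 CPM, and 4 of 5 tested genes of the proximal intestine were lower. The mean log2 CPM of the ileal genes was between 0.10 and 1.99 in WT and between 7.2 and 7.63 in KO libraries. Genotype and position along the gut therefore cannot be told apart in any comparison of these groups.

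Among the peptide genes of the list, *Gal* was higher in KO while *Vip*, *Npy* and *Tac1* did not pass the test. Upstream sequences are shown for *Gal*, *Vip* and *Npy*, enteric neuropeptides that did not share the call; that of *Tac1* is left out because its window overlaps the gene as GENCODE annotates it. RefSeq promoter entries (GRCm38.p6) were found for 20 of the 31 members. The 250 bases before the start of each gene are printed 5′ to 3′ on the strand of the gene, with capitals marking the half-site of the cAMP response element, TGACG, or its other strand, CGTCA. *Vip* lies on the plus strand (chr10:5638968-5639217), *Npy* on the plus strand (chr6:49822460-49822709) and *Gal* on the minus strand (chr19:3414545-3414794).
Vip: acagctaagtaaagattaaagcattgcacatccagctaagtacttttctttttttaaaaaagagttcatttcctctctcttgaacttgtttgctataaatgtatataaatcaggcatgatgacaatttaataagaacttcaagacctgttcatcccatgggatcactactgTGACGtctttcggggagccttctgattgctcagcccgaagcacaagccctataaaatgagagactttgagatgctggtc
Npy: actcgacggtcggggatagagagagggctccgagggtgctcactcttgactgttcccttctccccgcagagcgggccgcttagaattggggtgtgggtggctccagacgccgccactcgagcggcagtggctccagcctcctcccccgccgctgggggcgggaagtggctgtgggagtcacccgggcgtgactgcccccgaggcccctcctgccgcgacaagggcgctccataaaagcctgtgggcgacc
Gal: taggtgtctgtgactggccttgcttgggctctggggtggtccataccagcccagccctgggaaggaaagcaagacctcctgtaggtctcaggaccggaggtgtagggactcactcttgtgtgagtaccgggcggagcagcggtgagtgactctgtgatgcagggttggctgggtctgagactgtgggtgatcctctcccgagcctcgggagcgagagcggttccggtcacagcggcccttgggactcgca
The *Vip* window held 1 half-site, whose first letter lies 79 bases before the start, and the windows of *Npy* and *Gal* held none. Of the 20 members with an entry, 7 held a half-site in at least 1 of their entries (*Chat*, *Ednrb*, *Elavl4*, *Hand2*, *Nos1*, *Tac1* and *Vip*), or 35%, and 19.8% of all 27025 genes with an entry did so in the same window. Holders and non-holders each included genes that were higher in KO and genes that were not. A match of these letters describes the window and does not show that a factor binds it.

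Transcripts of enteric neurons and of most glial markers were more abundant in KO than in WT intestine. Of the 30 members tested, 23 were higher in KO, none was lower by edgeR's test (0 by DESeq2; 0 members had a negative change at an unadjusted p under 0.05) and 7 were not called. Across all 15610 genes tested, 16.0% were higher and 13.9% were lower in KO. The 23 include *Nefl*, *Gfap* and *Chat*, which passed the filter on low counts largely through the KO libraries. Smooth muscle genes moved with the members, 11 of 12 being higher (median log2 fold change 1.64, against 1.49 for the neuron members). With the mean level of the muscle genes added to the model 0 members were called by edgeR (2 at an unadjusted p under 0.05). In that model only 10 of the 15610 genes were called higher and 5 lower, and muscle level and genotype can hardly be separated. The median log2 fold change was 1.41 over the tested members and 0.03 over all tested genes. Every KO library was above every WT library for 17 of the 31 members (16 of the 30 tested), against 10.2% of the tested genes, and no member had every KO library below every WT library, against 10.8%. The members not called were *Nefm*, *Vip*, *Tac1*, *Npy*, *Gfra3*, *Erbb3* and *Ednrb*, and the adjusted p nearest to the threshold of 0.05 was 0.0363 inside it (*Elavl4*) and 0.0885 outside it (*Tac1*). Without KO replicate 4, 19 members were higher, and leaving out any other single library gave between 18 and 25. The share of all tested genes that were higher was 13.3% without KO replicate 4 and between 10.3% and 18.5% without any other library.

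**Figure D1:**
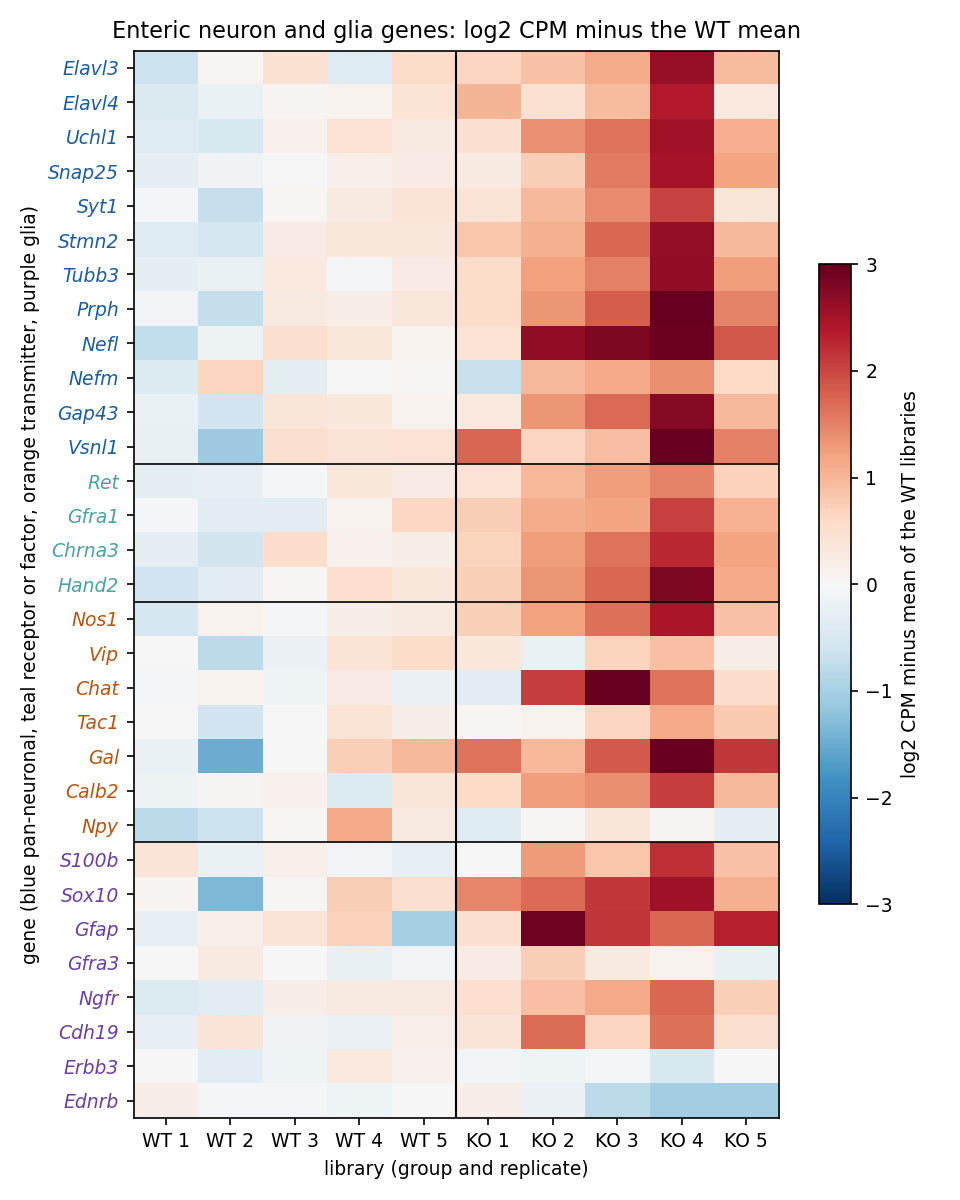
Each row is a member and each column a library; colour gives log2 CPM minus the mean of the 5 WT libraries. KO replicate 4 is the darkest red column, KO replicate 1 the palest of the KO columns, and the rows of *Npy*, *Gfra3*, *Erbb3* and *Ednrb* lack the red of the others.

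Most of the genes that neurons share were higher in KO. Of the 11 pan-neuronal genes tested, 10 were higher in KO, and their log2 fold changes ran from 0.85 to 2.53 (median 1.56). *Uchl1*, the ubiquitin hydrolase PGP9.5 used to stain enteric nerves, had 3.79, 3.57, 5.48, 6.76 and 6.05 CPM in WT replicates 1 to 5 and 6.99, 13, 15.7, 29.1 and 10.6 CPM in KO replicates 1 to 5. The groups did not overlap, although KO replicate 1 lay just above the highest WT library. The log2 fold change of *Uchl1* was 1.56 (SE 0.35, adjusted p = 0.0086). *Tubb3*, the neuronal tubulin, gave 3.22, 3.44, 4.90, 3.85 and 4.71 CPM in WT and 5.86, 9.49, 11.5, 25.6 and 9.55 CPM in KO. Here too KO replicate 4 was far above the other KO libraries and no WT library reached the lowest KO library. Its log2 fold change was 1.62 (SE 0.35, adjusted p = 0.00689).

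Intermediate filaments of peripheral nerve showed both the widest change and an uncalled member. *Prph*, the filament peripherin of peripheral neurons, had 4.83, 3.06, 6.18, 5.94 and 6.50 CPM in WT against 7.6, 13.1, 18.2, 41.3 and 14.7 CPM in KO, a log2 fold change of 1.84 (SE 0.41, adjusted p = 0.0077). *Nefl*, the light neurofilament chain, was at 0.259, 0.447, 0.758, 0.659 and 0.560 CPM in WT and at 0.732, 3.83, 4.21, 4.62 and 2.15 CPM in KO. That difference, 2.53 on the log2 scale (SE 0.48, adjusted p = 0.00372), rests on low counts, 47 summed over WT and 302 summed over KO. *Nefl* passed the filter on low counts largely through the KO libraries, so its call is given as a description. KO replicate 1 lay within the WT range of *Nefl*, and the other 4 KO libraries lay above it. *Nefm*, the medium chain, had 1.19 ± 0.398 CPM in WT and 2.13 ± 0.959 in KO, with KO replicate 1 the lowest of all 10 libraries, and its log2 fold change of 0.85 (SE 0.38) did not pass (adjusted p = 0.108). Without KO replicate 1 the value for *Nefm* was 1.07 (adjusted p = 0.015). Exons of *Nefl* and *Nefm* overlap on different strands of chromosome 14 (68083863 to 68089095 and 68082590 to 68124846, GRCm38), so that reads there may be counted for either gene if strand was not used.

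Synaptic and growth-cone genes were among those that rose. *Snap25*, a part of the complex that fuses synaptic vesicles, rose from 4.01 ± 0.601 to 11.1 ± 7.13 CPM (log2 fold change 1.47, SE 0.37, adjusted p = 0.013). *Stmn2*, which binds tubulin in growing axons, rose from 5.00 ± 1.38 to 15.1 ± 9.23 CPM (1.59, SE 0.36, adjusted p = 0.00895). *Gap43*, a growth-cone protein, rose from 2.30 ± 0.609 to 7.22 ± 5.00 CPM (1.65, SE 0.42, adjusted p = 0.0143), with 4 of 5 KO libraries above all WT libraries.

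The calls of 3 further pan-neuronal genes depended on single libraries. *Elavl3* and *Elavl4*, which encode the neuronal RNA-binding proteins HuC and HuD, had log2 fold changes of 1.46 (SE 0.44, adjusted p = 0.0292) and 1.24 (SE 0.40, adjusted p = 0.0363). *Elavl4* was at 1.56, 1.85, 2.27, 2.31 and 2.86 CPM in WT and at 4.39, 2.94, 4.21, 11.5 and 2.62 CPM in KO, and KO replicate 5 lay below the highest WT library. Its value without KO replicate 4 was 0.71 (adjusted p = 0.0521), and the call was also lost without WT replicate 1, 2, 3 or 4 or KO replicate 3 (adjusted p between 0.0508 and 0.0849). *Elavl3* lost its call without WT replicate 1, 2 or 4 (adjusted p = 0.0712, 0.0636 and 0.0637), and its value without KO replicate 4 was 0.89, still called. *Syt1*, the calcium sensor of vesicle release, had a log2 fold change of 1.16 (SE 0.34, adjusted p = 0.0267) with 3 of 5 KO libraries above all WT libraries. Its call was lost without WT replicate 1, 2 or 3 or KO replicate 3 or 4, at adjusted p between 0.0543 and 0.0642. *Vsnl1* summed to 26 counts in WT and 117 in KO, a difference of 1.56 in mean log2 CPM, with all KO libraries above all WT libraries. The exact permutation test (2-sided) gave p = 0.00794, the smallest that 5 against 5 can give, and the difference was 1.2 without KO replicate 4.

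**Figure D2:**
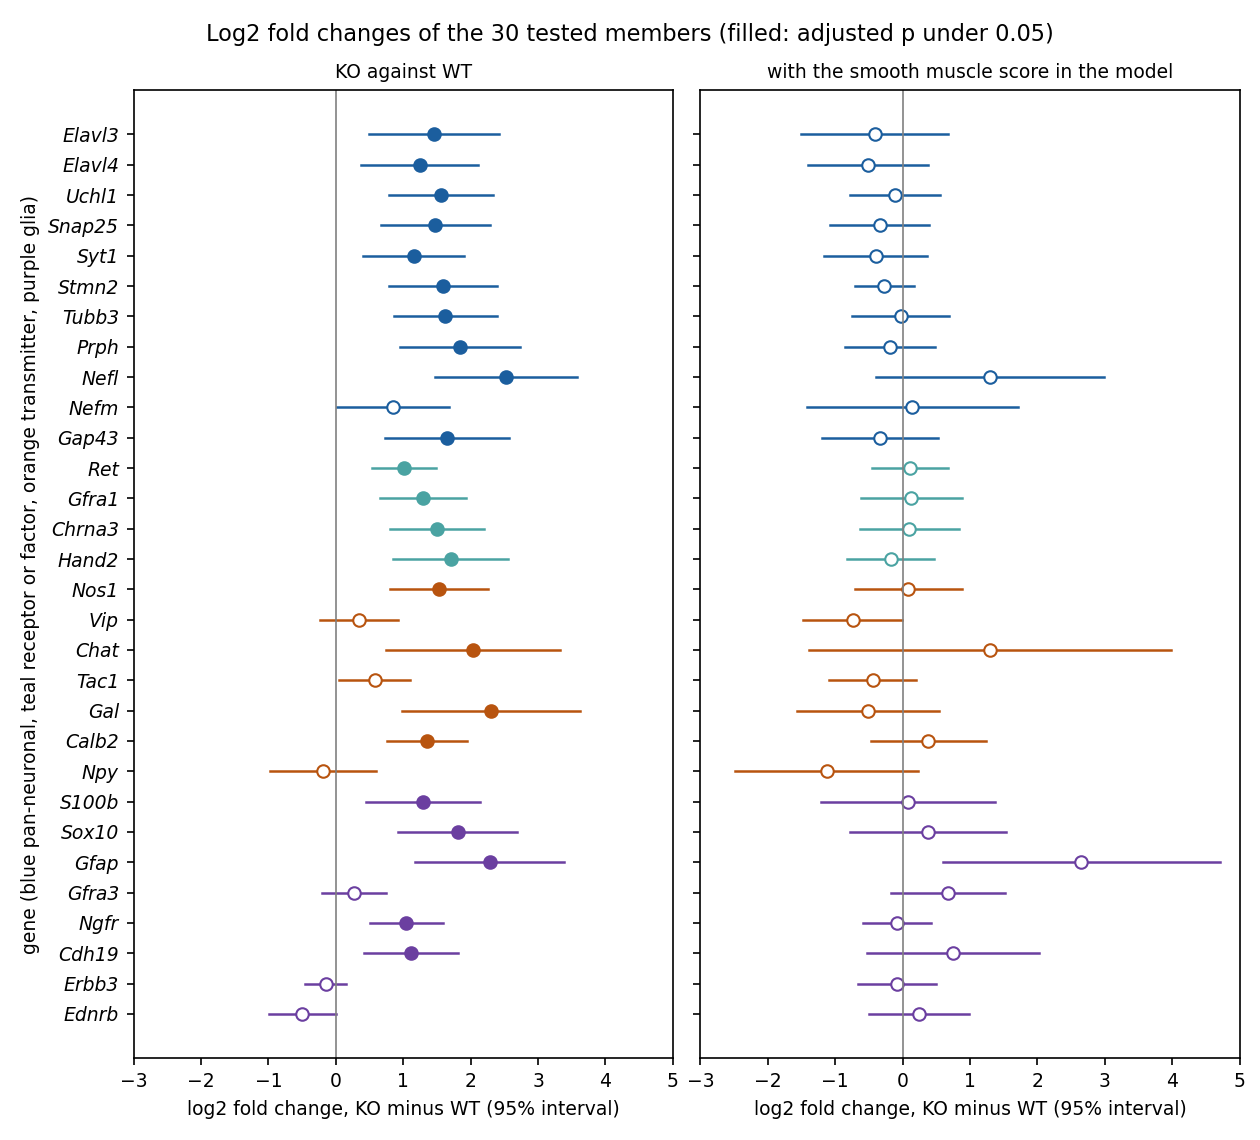
Points are log2 fold changes (KO minus WT) of the 30 tested members with 95% intervals from edgeR, in the comparison of the groups (left) and with the smooth muscle score added to the model (right); filled points have an adjusted p under 0.05. On the left 23 points are filled and on the right 0. In the model on the right only 10 genes of the whole table were called higher and 5 lower.

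Receptors and transcription factors of the neuronal lineage were higher in KO in 4 of 4 cases, and for each of them the groups did not overlap. *Ret*, the receptor for the neurotrophic factor Gdnf and its relatives, had 6.02, 6.12, 7.12, 9.23 and 8.74 CPM in WT and 9.91, 14.6, 17.8, 20.8 and 12 CPM in KO. KO replicate 1 was only just above WT replicate 4, and the log2 fold change was 1.01 (SE 0.22, adjusted p = 0.00655). *Gfra1*, its co-receptor, rose from 2.09 ± 0.642 to 5.11 ± 2.05 CPM (1.29, SE 0.29, adjusted p = 0.00839). *Chrna3*, a subunit of the ganglionic nicotinic acetylcholine receptor, rose from 1.90 ± 0.568 to 5.38 ± 2.35 CPM (1.5, SE 0.32, adjusted p = 0.00644). *Hand2*, a transcription factor needed for enteric neuron differentiation, was at 2.28, 2.74, 3.62, 4.95 and 4.43 CPM in WT and at 5.75, 8.86, 11.6, 24.7 and 7.76 CPM in KO. The change of *Hand2*, 1.70 (SE 0.39, adjusted p = 0.0089), was the widest of the group, and the gene is also expressed by gut mesenchyme. Exons of *Gfra1*, *Hand2*, *Nos1* and *Uchl1* overlap those of an annotated gene on the other strand, whose reads cannot be told apart if strand was not used in counting.

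Transmitter genes divided into 4 that were higher in KO and 3 that were not called. *Nos1*, the neuronal nitric oxide synthase of inhibitory motor neurons, had 2.13, 3.32, 2.97, 3.46 and 3.70 CPM in WT and 5.07, 7.19, 9.88, 17.1 and 5.77 CPM in KO. The groups were separate, and the log2 fold change was 1.53 (SE 0.33, adjusted p = 0.00674). *Vip*, the peptide of many of the same neurons, had 19.0, 10.8, 16.6, 25.1 and 27.6 CPM in WT and 23.5, 16.5, 29.9, 35.3 and 21.1 CPM in KO. For *Vip* the groups overlapped over most of their range, with WT replicate 2 lowest, and the log2 fold change of 0.35 (95% interval -0.23 to 0.93) did not pass (adjusted p = 0.326).

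Genes of excitatory transmission behaved unevenly across libraries. *Chat*, which makes acetylcholine, was at 0.571, 0.638, 0.525, 0.714 and 0.504 CPM in WT and at 0.451, 2.83, 5.99, 2.05 and 0.892 CPM in KO. KO replicate 1 was the lowest of all 10 libraries for *Chat*, and KO replicate 3, not 4, was the highest. The log2 fold change was 2.04 (SE 0.59, adjusted p = 0.0243), and the exact permutation test on log2 CPM gave p = 0.0556. Without KO replicate 3 it was 1.38 (adjusted p = 0.0572), and the call was also lost without WT replicate 1, 2, 3 or 5 (adjusted p between 0.0512 and 0.0567). *Chat* passed the filter on low counts largely through the KO libraries, so its call is given as a description. *Tac1*, the precursor of substance P, had 7.94, 5.36, 7.87, 10.7 and 8.97 CPM in WT and 8.34, 8.55, 12.5, 17.6 and 13.9 CPM in KO. Its log2 fold change of 0.58 (95% interval 0.05 to 1.10) had an adjusted p of 0.0885, and without KO replicate 1 it was 0.68 (adjusted p = 0.0445).

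*Gal*, the peptide galanin, had 1.71, 0.638, 1.98, 3.35 and 4.03 CPM in WT and 6.37, 4.09, 7.39, 31.2 and 9.02 CPM in KO, with KO replicate 4 far above the rest and the groups apart. The log2 fold change was 2.30 (SE 0.60, adjusted p = 0.0164), and 1.51 without KO replicate 4. *Calb2*, the calcium-binding protein calretinin found in many excitatory and sensory enteric neurons, rose from 3.10 ± 0.631 to 7.94 ± 3.22 CPM with no overlap (1.36, SE 0.27, adjusted p = 0.00499). *Npy*, neuropeptide Y, had 1.3, 1.47, 2.39, 5.28 and 2.86 CPM in WT and 1.80, 2.41, 3.02, 2.48 and 1.94 CPM in KO. WT replicate 4 was the highest library, all KO libraries lay within the WT range, and the log2 fold change was -0.19 (95% interval -0.98 to 0.60, adjusted p = 0.712). Without WT replicate 4 the value for *Npy* was 0.20 (adjusted p = 0.616).

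**Figure D3:**
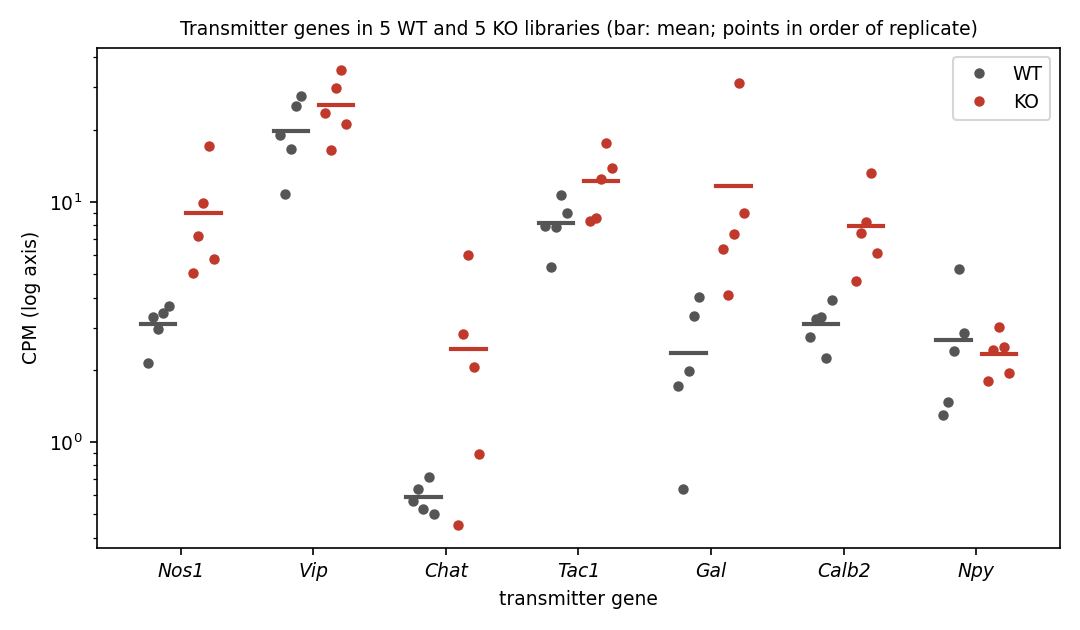
CPM on a log axis of the 7 transmitter genes, with 1 point per library in order of replicate (WT grey, KO red) and a bar at the mean of each group. The KO points of *Nos1*, *Gal* and *Calb2* lie above all WT points, and those of *Vip*, *Tac1* and *Npy* overlap them.

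Each transmitter gene was also set against *Nos1* within the same library. This measure was chosen after the separate values were seen, so that the 6 ratios are a description with no test, and each moves with *Nos1* itself. The log2 ratio of *Npy* to *Nos1* CPM was -0.37 ± 0.63 in WT and -1.78 ± 0.54 in KO, with 5 of 5 KO libraries below all WT libraries. For *Vip* the same ratio was 2.58 ± 0.56 in WT and 1.57 ± 0.47 in KO, and for *Tac1* it was 1.35 ± 0.44 and 0.52 ± 0.47, each with 3 of 5 KO libraries below all WT libraries. The KO minus WT differences of the mean log2 ratios of *Chat*, *Calb2* and *Gal* were 0.03, -0.12 and 0.72. *Tac1* is also expressed by enteroendocrine cells, whose part in its value was not tested.

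Glial markers were higher in KO in 5 of 8 cases, with a median log2 fold change of 1.08, and in 3 cases without KO replicate 4, WT replicate 3 or WT replicate 4. *Sox10*, the transcription factor of neural crest and glia, had 1.04, 0.319, 0.992, 1.70 and 1.40 CPM in WT and 2.87, 3.41, 4.59, 6.24 and 2.15 CPM in KO. All KO libraries lay above all WT libraries, and the log2 fold change was 1.81 (SE 0.40, adjusted p = 0.00782). *Gfap*, the glial filament, was at 0.259, 0.383, 0.467, 0.605 and 0.112 CPM in WT and at 0.507, 3.20, 1.84, 1.33 and 2.10 CPM in KO. KO replicate 2 was the highest library for *Gfap* and KO replicate 1 lay within the WT range. Its log2 fold change of 2.28 (SE 0.50, adjusted p = 0.00777) rests on 32 counts summed over WT and 172 over KO. *Gfap* passed the filter on low counts largely through the KO libraries, so its call is given as a description. *Ngfr*, the low-affinity neurotrophin receptor p75, rose from 5.23 ± 1.19 to 10.8 ± 3.83 CPM (1.05, SE 0.25, adjusted p = 0.0106).

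*S100b*, a calcium-binding protein of glia, had a log2 fold change of 1.29 (SE 0.39, adjusted p = 0.0281) and *Cdh19*, a cadherin of the Schwann cell lineage, of 1.12 (SE 0.32, adjusted p = 0.0232). Both calls were lost without KO replicate 4 (0.87, adjusted p = 0.0512, and 0.92, adjusted p = 0.0511). *S100b* also lost its call without WT replicate 2, 3, 4 or 5, and *Cdh19* without WT replicate 1, 3 or 4 or KO replicate 2, at adjusted p between 0.0519 and 0.0669.

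The 3 glial genes that were not called had different levels. *Erbb3*, a neuregulin receptor of glia that intestinal epithelium also expresses, had 524, 420, 479, 642 and 570 CPM in WT and 491, 476, 508, 378 and 523 CPM in KO. Per kilobase of exon it stood at 87.6 ± 14.1 CPM in WT, against 0.36 ± 0.17 for *Sox10*, so its reads cannot be assigned to glia here. Its log2 fold change was -0.15 (95% interval -0.45 to 0.15, adjusted p = 0.433). *Ednrb*, the endothelin receptor through which neural crest cells settle the distal gut, had 46.0, 38.9, 38.9, 36.3 and 39.4 CPM in WT and 45.2, 35.0, 22.9, 19.4 and 19.3 CPM in KO. KO replicate 1 lay within the WT range and the other 4 KO libraries below it, and the log2 fold change of -0.49 (SE 0.23) did not pass (adjusted p = 0.118). Without KO replicate 1 it was -0.73 and passed (adjusted p = 0.0114). Per kilobase of exon *Ednrb* stood at 9.35 ± 0.845 CPM in WT, also far above *Sox10*, so its reads cannot be assigned to glia either. *Gfra3*, the artemin co-receptor, had 1.75 ± 0.231 CPM in WT and 2.10 ± 0.559 in KO (0.27, 95% interval -0.21 to 0.75, adjusted p = 0.369).

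Averaged over genes, neuron members had a mean log2 CPM of 1.13, 1.06, 1.55, 1.69 and 1.75 in WT and 1.95, 2.47, 2.91, 3.66 and 2.39 in KO, a difference of 1.24. The mean of the glia members was between 1.97 and 2.32 in WT and between 2.55 and 3.26 in KO, a difference of 0.78. Neuron minus glia was thus 0.46 higher in KO, with 3 of 5 KO libraries above all WT libraries, and 0.28 higher without KO replicate 4. This contrast turned on *Erbb3* and *Ednrb*. Without them the glia members differed by 1.15, and neuron minus glia differed by 0.08, with WT libraries between 0.73 and 1.35 and KO libraries between 0.47 and 1.54. Removing the 2 genes was decided after their values were seen.

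Much of the spread within KO came from a single library. KO replicate 4 was the highest of all 10 libraries for 24 of the 31 members, 21 of them neuronal, and for 23.8% of all tested genes. KO replicate 1 was the lowest KO library for 22 members, and among WT libraries replicates 1 and 2 were each lowest for 12. Without KO replicates 1 and 4, a choice made after seeing the data, 23 members were higher and *Ednrb* was lower, and the median log2 fold change was 1.25 for neuron and 0.99 for glia members.

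Genes of smooth muscle moved with the neuron genes in the same libraries. Of 12 smooth muscle genes 11 were higher in KO (median log2 fold change 1.64), among them *Acta2*, smooth muscle actin, from 269 ± 67.6 to 808 ± 489 CPM, and *Myh11*, the smooth muscle myosin, from 556.5 ± 144.9 to 1384 ± 651.5 CPM. The uncalled gene was *Mylk*, the myosin light chain kinase (0.63, SE 0.24, adjusted p = 0.0659). KO replicate 4 was the highest library for 12 of the 12. The mean log2 CPM of the muscle genes was 6.89, 6.70, 7.30, 7.43 and 7.47 in WT and 8.12, 8.11, 8.74, 9.55 and 8.35 in KO. Pacemaker genes of the interstitial cells that lie beside the plexus were higher in 4 of 5 cases, with *Kit* from 27.4 ± 5.59 to 61.3 ± 20.9 CPM and *Ano1*, their chloride channel, from 14.3 ± 2.76 to 30 ± 11.1 CPM. Neuron minus smooth muscle was between -5.76 and -5.64 in WT and between -6.17 and -5.64 in KO, a difference of -0.18 with 4 of 5 KO libraries below all WT libraries. The difference was -0.11 without KO replicate 1 and -0.35 with the median of the genes in place of the mean. For the pan-neuronal genes alone the difference was -0.06, with 2 of 5 KO libraries below and 2 above all WT libraries. No defining muscle marker was at 0 in any library.

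With the muscle score added to the edgeR model, no member was called. Of the 30 log2 fold changes 14 were above and 16 below 0, and their median was -0.06. The medians were -0.18 for neuron and 0.31 for glia members. *Gfap* and *Vip*, the 2 members at an unadjusted p under 0.05, went in opposite directions. The log2 fold change of *Gfap* was 2.65 (SE 0.92, adjusted p = 0.241), against 2.28 without the score, on low counts. That of *Vip* was -0.74 (SE 0.33, adjusted p = 0.352), against 0.35 without the score. Because the muscle scores of WT and KO libraries do not overlap, the score and the genotype can hardly be separated in this model, and 10 genes of the whole table were called higher and 5 lower. The share of muscle wall in each segment was not measured.

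**Figure D4:**
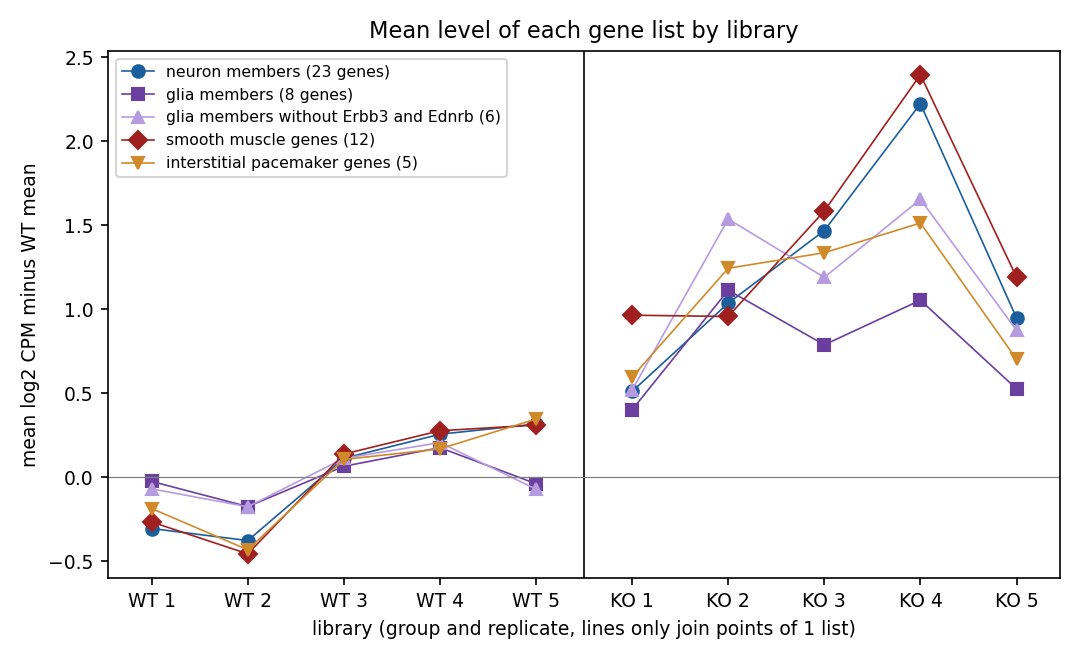
Mean log2 CPM of each gene list in each library, minus the mean of the 5 WT libraries; lines only join the points of a list. Neuron and smooth muscle genes peak in KO replicate 4, as do the glia members without *Erbb3* and *Ednrb*, and the 8 glia members together are highest in KO replicate 2.

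Markers of other cell types were called in both directions, beside 16.0% of all tested genes higher and 13.9% lower. Endothelial genes were higher in 0 and lower in 3 of 8 cases (edgeR adjusted p under 0.05), among them *Plvap*, a protein of vessel fenestrae, and their mean log2 CPM differed by -0.30, with 4 of 5 KO libraries below all WT libraries. Fibroblast genes were higher in 2 of 8, and their mean differed by 0.29, with 4 of 5 KO libraries above and KO replicate 5 below all WT libraries. Epithelial genes were higher in 5 of 8, with all 5 KO libraries above all WT libraries in their mean (difference 0.42) and *Krt8*, an epithelial keratin, from 3102 ± 226.8 to 5302 ± 767 CPM. *Vil1*, the brush border protein villin (-0.49, SE 0.21), and *Krt20*, a keratin of mature enterocytes (-0.35, SE 0.20), were not called (adjusted p = 0.105 and 0.193), and each had 4 of 5 KO libraries below all WT libraries. Pancreatic genes, tested as a sign of neighbouring tissue, gave no call in 2 tested. Of 15 enteroendocrine genes 9 were lower and 3 were higher in KO (*Sct*, *Gcg* and *Pyy*, the hormones secretin, glucagon precursor and peptide YY, the last 2 named after their values were seen). *Chgb*, a granule protein shared by endocrine cells and neurons, fell from 197.5 ± 27.2 to 49.8 ± 30.5 CPM. Their part in the results for the members was not tested.

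A wider list of 56 enteric nervous system genes outside the members held 45 that could be tested. Of these, 25 (55.6%) were higher in KO, against 16.0% of all tested genes, and 1 was lower, against 13.9%. Their median log2 fold change was 1.06. The 25 include *Grp* and *Rbfox3*, named after their values were seen, which passed the filter on low counts only through KO. Without WT replicate 2, 15 were higher, against 10.3% of all tested genes. Among genes of neuronal structure and synapse, 10 of 17 were higher. *Dpysl3*, which guides axon growth, rose from 22.0 ± 4.47 to 38.5 ± 7.11 CPM. *L1cam*, an adhesion molecule of axons, rose from 50.6 ± 10.5 to 75.5 ± 14.8 CPM. For *L1cam* KO replicate 4 was the lowest KO library, at 49.8 CPM within the WT range, unlike for most neuron members. Of 8 further factors and receptors 6 were higher, including *Hand1*, a transcription factor related to Hand2 (1.35, SE 0.42, adjusted p = 0.0325) and *Gfra2*, the neurturin co-receptor (1.40, SE 0.35, adjusted p = 0.0139).

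Transmitter enzymes, peptides and carriers outside the members were higher in 6 and lower in 1 of 11 cases, against 16.0% and 13.9% of all tested genes. The gene that fell was *Ddc*, the decarboxylase that makes serotonin and dopamine and is also present in enterocytes and endocrine cells, from 248 ± 82.8 to 65.1 ± 37.1 CPM (-1.93, SE 0.36, adjusted p = 0.00357). *Grp*, the gastrin-releasing peptide of enteric neurons, is named because its change stood out once values were seen. It had between 0.0638 and 0.259 CPM in WT and 0.563, 6.08, 14.7, 3.72 and 1.63 CPM in KO, on 16 and 508 counts in all, values that are given as a description, since the gene was picked for its change and passed the filter on low counts only through KO. KO replicate 3 was highest for *Grp*, as it was for *Chat*. *Slc18a2* (0.21, SE 0.28) and *Sst* (-0.44, SE 0.18), the vesicular monoamine carrier and somatostatin, were not called (adjusted p = 0.596 and 0.0792). Per kilobase of exon *Sst* stood at 63.3 CPM in WT, against 5.82 for *Vip*. The part of endocrine cells in the values of *Sst* and *Slc18a2* was not tested.

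Fewer of the other glial genes were called, 3 of 9 tested being higher, against 16.0% of all tested genes. They included *Scn7a*, a sodium channel of glia, and, named after its value was seen, *Gpm6b*, a neural membrane glycoprotein, with log2 fold changes of 0.91 and 0.78 (SE 0.31 and 0.25; adjusted p = 0.0453 and 0.0361). *Entpd2*, an ectonucleotidase, and *Mbp*, a myelin protein that other cells transcribe too, had 0.13 (SE 0.10) and 0.05 (SE 0.08) and were not called. Whether the share of glial genes called differs from that of neuron genes was not tested.

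Ligands that guide the enteric nervous system were higher in 2 and lower in 1 of 7 tested cases. Of all tested genes 16.0% were higher and 13.9% lower, and with so few ligands no result about them as a set is drawn. *Nrtn*, the ligand neurturin, rose from 3.97 ± 0.988 to 7.85 ± 3.31 CPM (0.98, SE 0.28, adjusted p = 0.0217), and *Edn3*, the ligand of Ednrb, rose from 30.3 ± 4.18 to 50.1 ± 11.5 CPM (0.72, SE 0.17, adjusted p = 0.00992). *Ece1*, the enzyme that activates endothelins, had 142 ± 12.4 and 118.5 ± 9.40 CPM and was not called (-0.26, SE 0.09, adjusted p = 0.051). *Ntf3*, neurotrophin 3, fell from 3.72 ± 0.682 to 2.44 ± 0.462 CPM (adjusted p = 0.0408; named after its value was seen). Receptors for the transmitters were higher in 3 and lower in 1 of 11, and the same limit holds for them. *Vipr1*, a receptor for VIP, fell from 353 ± 31.9 to 168 ± 61.6 CPM (-1.07, SE 0.22, adjusted p = 0.00564). *Gucy1a1* and *Gucy1b1*, the subunits of the nitric oxide receptor, had 0.16 (SE 0.16) and 0.35 (SE 0.16) and were not called (adjusted p = 0.473 and 0.128). *Chrm2*, the muscarinic receptor of smooth muscle, *Galr2*, a galanin receptor, and *Npy1r*, a neuropeptide Y receptor, were higher by 1.39, 1.38 and 1.1 on the log2 scale (adjusted p = 0.00445, 0.0441 and 0.0433; named after their values were seen).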

How the data were processed

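The deposited values are raw counts, whole numbers of reads for each Ensembl gene, not normalized, from 10 libraries of single mice. The submitters' processing notes name FastQC 0.11.9, Trimmomatic, HISAT2 2.0.4, SAMtools 1.3.1, DESeq2 1.14.1 and the builds GRCm38 and mm10, while the read counter, annotation and strandedness were not given in the sources used here. GENCODE M21 (GRCm38) supplied symbols for 34490 of 35275 IDs, and the 785 others held between 0.0729% and 0.0827% of a library's counts and stayed in the test.

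Groups were compared in R 4.3.3 with edgeR 4.0.16 (quasi-likelihood test, TMM scaling) on 15610 genes that passed filterByExpr (count 10, total 15 at the least), adjusted by Benjamini-Hochberg over all 15610 with a threshold of 0.05. SE and 95% intervals come from that model. CPM are counts scaled to the TMM-adjusted library size, log2 CPM has a prior count of 2, which shrinks differences of low genes, and list means average log2 CPM over genes. The median depth was 18206101 counts in WT and 18146070 in KO, and a count of 0 allows up to 3 counts, for counting error only. Replicates differed beyond sampling noise (chi-square per degree of freedom between 14.5 and 121 over 20 pairs). The test was run on simulated data first.

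The members and the other lists were chosen with earlier results of these data known. Named were all 31 members, the targeted gene, the members nearest the threshold and up to 3 genes of each other list with the highest mean CPM; other names are marked as chosen after seeing values. Some genes that this rule takes in are counted in their lists but not reported here by name. Alternatives were RLE or library-size scaling, DESeq2 1.42.0, other filters, a robust fit, a prior count of 0.5, each library left out, a replicate block and a smooth muscle covariate.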

Additional observations from a re-analysis of the deposited data

Results flagged for a closer look

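*Elavl3* in KO was the only one of 70 groups of 5 values tested (31 members and 4 list means in each genotype) in which a single library stood apart from the rest by Dixon's criterion. KO replicate 4 had a log2 CPM of 2.81, the other KO libraries lay between 0.85 and 1.31, and the gap was 0.763 of the whole range, above the critical value of 0.71. Chance alone marks about 1 in 20 such groups.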

How the results depend on the processing

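RLE scaling, library-size scaling, a robust fit, DESeq2, a filter at a mean count of 10 and the unfiltered table kept the direction and call of all 30 tested members. Library-size scaling moved the median of all genes to 0.15 and the share of calls that were higher from 53.5% to 69.4%, with 23 members still higher. *Vsnl1* was 2.01 by DESeq2 (adjusted p = 0.00598), 1.98 by edgeR without a filter (adjusted p = 0.0275) and 1.85 with a prior count of 0.5.

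Leaving out single libraries gave 18 to 25 members higher and 0 to 1 lower, 14 to 20 neuron and 3 to 5 glia members higher (3 without WT replicate 3, WT replicate 4 or KO replicate 4), 15 to 34 of the other enteric nervous system genes higher (15 without WT replicate 2), and 1634 to 2944 of all genes higher. Without KO replicates 1 and 4 together 1 member, *Ednrb*, was lower. *Npy* changed sign without WT replicate 4 (0.20; between -0.37 and 0.20 over the libraries left out).

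Replicate numbers did not pair the samples (correlations of same-numbered deviations between -0.17 and 0.18). With the replicate block 20 members were higher; the calls of *Elavl3*, *Elavl4*, *Chat* and *S100b* were lost (adjusted p = 0.0619, 0.0667, 0.0605 and 0.0811) and that of *Tac1* was gained (adjusted p = 0.0329), and 1 of 5 WT libraries correlated best with its own number.

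With the smooth muscle score in the model, 0 members, 0 neuron members, 0 glia members and 0 other enteric nervous system genes were higher, as were 10 of all genes, with 5 lower (edgeR; 2 members at an unadjusted p under 0.05, and DESeq2 was not run with this score). Medians were -0.18 (neuron) and 0.31 (glia). Signs turned for *Elavl3* (-0.42), *Elavl4* (-0.51), *Uchl1* (-0.11), *Snap25* (-0.34), *Syt1* (-0.40), *Stmn2* (-0.27), *Tubb3* (-0.0303), *Prph* (-0.19), *Gap43* (-0.34), *Hand2* (-0.18), *Vip* (-0.74), *Tac1* (-0.45), *Gal* (-0.52), *Ngfr* (-0.0872) and *Ednrb* (0.25); the cause was not tested. Low counts limit *Nefl*, *Gfap*, *Chat* and *Vsnl1*.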
